A study of Mus musculus with 25 samples.

Results

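The genes described here are those of the colony-stimulating factors, stem cell factor and their receptors: the ligand genes Csf1, Csf2, Csf3 and Kitl, and the receptor genes Csf1r, Csf2ra, Csf2rb, Csf3r, Flt3 and Kit. They were taken by symbol, 10 of the 24984 genes in the count table, and their RNA levels are given in each of 7 groups of libraries. BMEL cells are a line of bipotential mouse embryonic liver cells that can become hepatocytes or bile duct cells. Their origin is given as C57B/6_C3H in the labels and as C57BL/6xC3H in the paper's methods. Cultured cells made up 3 groups: BMEL control cells with an empty vector, and RasLOW and RasHIGH cells that carried H-Ras G12V, an always active form of Ras, on a lentiviral vector that also encodes a fluorescent protein. RasLOW and RasHIGH were populations sorted by that fluorescence, with an overlap in Ras level, and each cultured group had 3 libraries. The other 4 groups came from 4 athymic nude mice, which lack thymus-derived T cells through their Foxn1 mutation, after injection of BMEL-Ras cells into the liver: tumour cells (fluorescent) and stroma (not fluorescent) were sorted from the liver tumour and from the peritoneal tumour of each mouse, with 4 libraries a group. The sources used here do not give which Ras population had been injected into these 4 mice. The table counts the mouse Hras gene, which is no check of the transgene, so the Ras groups rest on the labels.

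CSF-1 (from Csf1) and interleukin-34 (from Il34) both act through the receptor tyrosine kinase CSF-1R, on which most macrophages depend for survival. GM-CSF (Csf2) binds a receptor made of a specific alpha chain (Csf2ra) and a beta chain (Csf2rb) that is shared with the receptors of interleukin-3 and interleukin-5, and it acts on macrophages, dendritic cells and granulocytes. G-CSF (Csf3) acts through Csf3r on neutrophils, FLT3 ligand (Flt3l) through Flt3 on dendritic cell precursors, and stem cell factor (Kitl) through Kit on mast cells and blood progenitors.

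The 25 libraries held between 20818989 and 51241336 counts each, so that 3 counts, taken as the floor of detection, corresponded to 0.0586 to 0.144 CPM (counts scaled to equal library size). Levels are given as CPM scaled by trimmed-mean (TMM) factors over all 25 libraries. The sorted fractions were checked with marker genes that are not among the 10. The leukocyte gene Ptprc, which encodes CD45, ran from 501 to 1020 CPM in the 8 stromal libraries and from 1.06 to 2.66 CPM in 7 of the 8 tumour-cell libraries. The peritoneal tumour cells of mouse 1 stood apart, with 12.2 CPM of Ptprc, or 2.04% of the level in the stroma of the same tumour. Fibroblast and stellate markers summed to 810 CPM in that library, against 138 to 227 CPM in the peritoneal tumour cells of the other mice. Endothelial markers in tumour cells stood at 10.2% to 35.7% of stroma in the liver and at 13.7% to 67% in the peritoneum. The 6 epithelial progenitor markers (Krt8, Krt18, Krt19, Epcam, Cdh1 and Sox9) summed to 698 to 1621 CPM in stroma and 8139 to 11259 CPM in tumour cells. Epcam alone went against the label, with at most 0.128 CPM in tumour cells and 3.06 to 6.49 CPM in stroma. The stroma held RNA of leukocytes, fibroblasts, endothelial cells and epithelium, and in such bulk samples fewer cells of a type and less RNA per cell cannot be told apart.

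Sequences are shown for ligand genes on opposite sides of the tumour, Csf1 (stroma) and Csf2 (tumour cells), and for a stretch that limits the counts of one receptor gene. The first are the 250 bases before the RefSeq transcription start of Csf1 (chr3:107563388-107563637, minus strand, intergenic) and Csf2 (chr11:54063402-54063651, minus strand, intergenic). They were copied from the RefSeq table of build GRCm38.p6 and placed on mm9 by an exact match, and capitals mark the GC box, GGGCGG on either strand.

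Csf1: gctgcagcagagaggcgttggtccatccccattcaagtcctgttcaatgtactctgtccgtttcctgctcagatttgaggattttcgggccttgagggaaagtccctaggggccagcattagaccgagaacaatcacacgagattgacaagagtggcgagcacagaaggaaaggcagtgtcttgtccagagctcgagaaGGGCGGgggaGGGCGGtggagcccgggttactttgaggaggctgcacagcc
Csf2: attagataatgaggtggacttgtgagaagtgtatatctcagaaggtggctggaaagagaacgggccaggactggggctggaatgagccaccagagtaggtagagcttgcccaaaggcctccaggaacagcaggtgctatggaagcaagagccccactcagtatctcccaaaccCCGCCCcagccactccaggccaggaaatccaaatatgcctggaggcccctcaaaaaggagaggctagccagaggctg

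The Csf1 window held 2 GC boxes and the Csf2 window 1, and no marked site overlapped another. A GC box was present in 35.7% of the 32851 RefSeq mouse promoter windows, each from 250 bases before to 50 bases after a start. TGANTCA, the letters bound by AP-1 (a factor downstream of Ras), on either strand, was in neither window and in 7.81% of all windows. GAGGAAGT, bound by the myeloid factor PU.1, was not in the same windows of the receptor genes Csf2ra, Csf3r, Flt3 and Kit, and was in 3.2% of all windows. Only this exact run of letters was searched for. The shorter GAGGAA does occur in the windows of Csf2ra, Csf3r and Kit, and its share over all windows was not taken. Csf1r and Csf2rb were not searched, so absence of PU.1 sites from the receptor genes is not shown. These are matches of letters only. GENCODE vM1 puts the start of Csf2 at chr11:54063169, downstream of its printed window, so the bases just before that start were not searched.

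The second sequence is a run of 242 bases of coding sequence that is identical in Csf2rb and its neighbour Csf2rb2, which encodes the interleukin-3-specific beta chain of the mouse. On mm9 it lies in an exon of Csf2rb at chr15:78179007-78179248 on the plus strand and in an exon of Csf2rb2 at chr15:78115060-78115301 on the minus strand.

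Shared by Csf2rb and Csf2rb2: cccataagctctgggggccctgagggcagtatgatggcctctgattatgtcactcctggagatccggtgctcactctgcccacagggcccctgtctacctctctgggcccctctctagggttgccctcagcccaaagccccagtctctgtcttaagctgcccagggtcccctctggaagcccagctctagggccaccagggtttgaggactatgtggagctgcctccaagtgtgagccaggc

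Of all windows of 50 bases in the coding sequence of Csf2rb, 26% also occur in that of Csf2rb2, and of all windows of 100 bases 11% do. How the authors counted reads that fit both genes is not given in the sources used here, so the split between Csf2rb and Csf2rb2 is uncertain.

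The first question was which compartment of the tumours carries each receptor and each ligand. In both sites the 6 receptor genes were stromal, as were Csf1 and Csf3, whereas Kitl and Csf2 were higher in the tumour cells. All 10 members passed the test between tumour cells and stroma in the liver (edgeR's quasi-likelihood test, adjusted p under 0.05), 2 higher in tumour cells and 8 lower. Of all genes tested 77.8% passed there, 38.4% higher and 39.4% lower. The peritoneum also gave 2 higher and 8 lower members, beside 76.6% of all genes, 39.5% higher and 37.1% lower, and leaving out any single library left 10 members called. The groups of libraries did not overlap for any of the 10 members in either site, nor for 73.5% of all genes in the liver and 71.8% in the peritoneum. With shares this high the calls are no result about the members, and the sizes are given: the median log2 fold change of the 6 receptor genes was -8.37 (liver) and -6.95 (peritoneum), against 0.0036 and 0.07 over all genes tested.

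Csf1r, the receptor of CSF-1 and interleukin-34, had the highest CPM of the receptor members in peritoneal stroma and the second highest in liver stroma. Its level was 1436, 1331, 1474 and 1527 CPM in the liver stroma of mice 1 to 4 and 1094, 821, 1040 and 1235 CPM in their peritoneal stroma. In liver tumour cells it was 3.63, 5.26, 6.63 and 7.07 CPM, and in peritoneal tumour cells 39.5, 2.64, 4.93 and 2.58 CPM. No tumour-cell library came near a stromal one, and the single high value was that of mouse 1. The log2 fold change of tumour cells against stroma was -8.03 (SE 0.22, adjusted p = 2.35e-11) in the liver and -6.34 (SE 1.05, adjusted p = 0.000556) in the peritoneum, and the latter was -8.27 without the peritoneal tumour cells of mouse 1.

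Csf2rb, the shared beta chain, had the highest CPM of the members in liver stroma. It stood at 2136, 1444, 1863 and 2116.5 CPM in liver stroma and 653, 736, 865 and 1139 CPM in peritoneal stroma, against 3.56 to 5.38 CPM in liver tumour cells. The peritoneal tumour cells of mouse 1 held 17.6 CPM and those of the other 3 mice 1.39 to 2.4 CPM. Its partner Csf2ra, the chain specific for GM-CSF, stood at 452 to 561 CPM in liver stroma and 255 to 386 CPM in peritoneal stroma, and at 0.707 to 1.89 CPM in liver tumour cells. Csf3r, the G-CSF receptor of neutrophils, ranged from 499 to 628 CPM in liver stroma, from 255 to 292 CPM in peritoneal stroma and from 0.489 to 5.12 CPM in the 8 tumour-cell libraries. From stroma to tumour cells of the liver the log2 fold changes of Csf2rb, Csf2ra and Csf3r were -8.77, -8.70 and -8.79.

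Flt3 and Kit were the least abundant receptors. Flt3 was measured at 32.6, 28.9, 33.4 and 27.9 CPM in liver stroma, at 18.2, 12, 16.3 and 7.64 CPM in peritoneal stroma, and at or below 0.499 CPM in all tumour-cell libraries, with 2 peritoneal libraries at 0. Kit was measured at 37.4, 65, 45.8 and 48.3 CPM in liver stroma, at 43.9, 36.4, 80.4 and 34.3 CPM in peritoneal stroma, and at or below 1.41 CPM in tumour cells. The groups did not overlap for either gene in either site. Per kilobase of annotated exon, where genes can be set side by side, the mean levels in liver stroma were 373 for Csf2rb, 276 for Csf1r, 276 for Csf2ra, 140 for Csf3r, 8.43 for Kit and 4.97 for Flt3, in CPM per kb. The order of Csf1r and Csf2ra was within their spread, with SDs of 15.8 and 25.7 CPM per kb (n = 4).

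**Figure D1:**
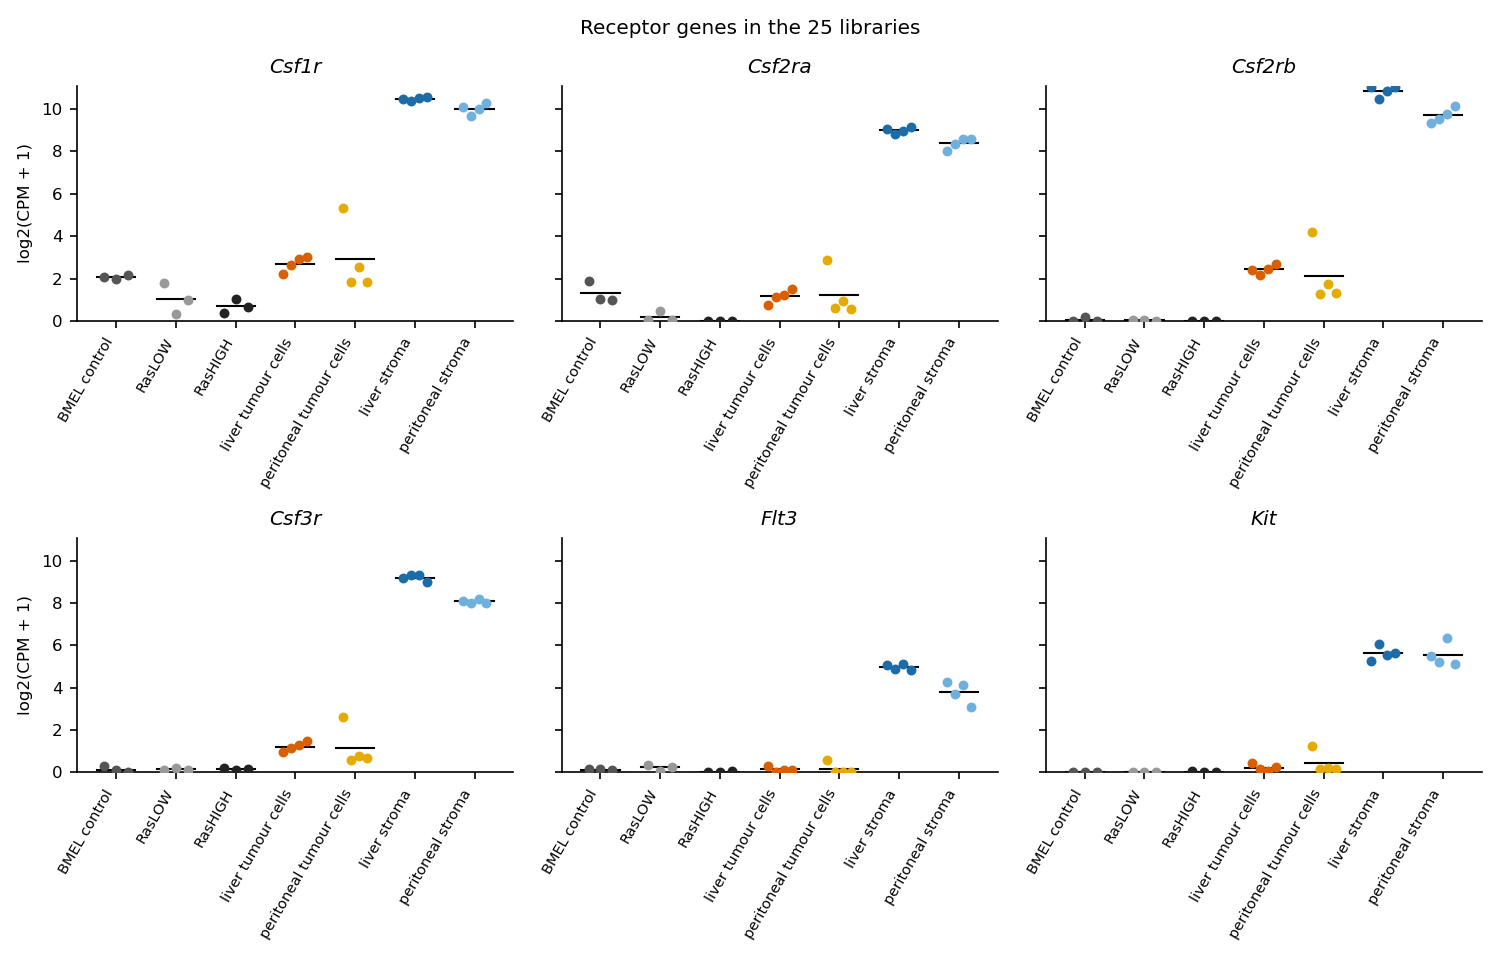
Each point is 1 of the 25 libraries, in log2(CPM + 1), for the 6 receptor genes; columns are the 7 groups and black bars their means. All 6 genes are higher in each of the 8 stromal libraries than in any cultured or tumour-cell library, and 1 peritoneal tumour-cell library, that of mouse 1, lies above the other 3 in each panel.

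The low receptor RNA of tumour cells was compared with that of leukocyte genes in the same libraries. In the liver the tumour-cell level of each receptor had a median of 0.212% to 0.423% of the level in the stroma of the same tumour, and Ptprc, which BMEL cells in culture hardly expressed (0 to 0.18 CPM), had 0.217%. In the peritoneal tumour cells of mouse 1 the receptors were at 1.89% to 3.61% of stroma, beside 2.04% for Ptprc and 4.15% for the summed macrophage markers. In the other 3 mice no receptor exceeded 0.474% of the peritoneal stroma. The macrophage sum was 1.05% to 1.74% of stroma in those peritoneal tumours and 1.1% to 1.5% in the liver, above the share of Ptprc. Cultured RasHIGH cells already held 45.9 to 62.49 CPM of these macrophage markers, against 69.25 to 88.44 CPM in liver tumour cells. The part of sorted-in leukocytes in these receptor levels was not tested.

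**Figure D2:**
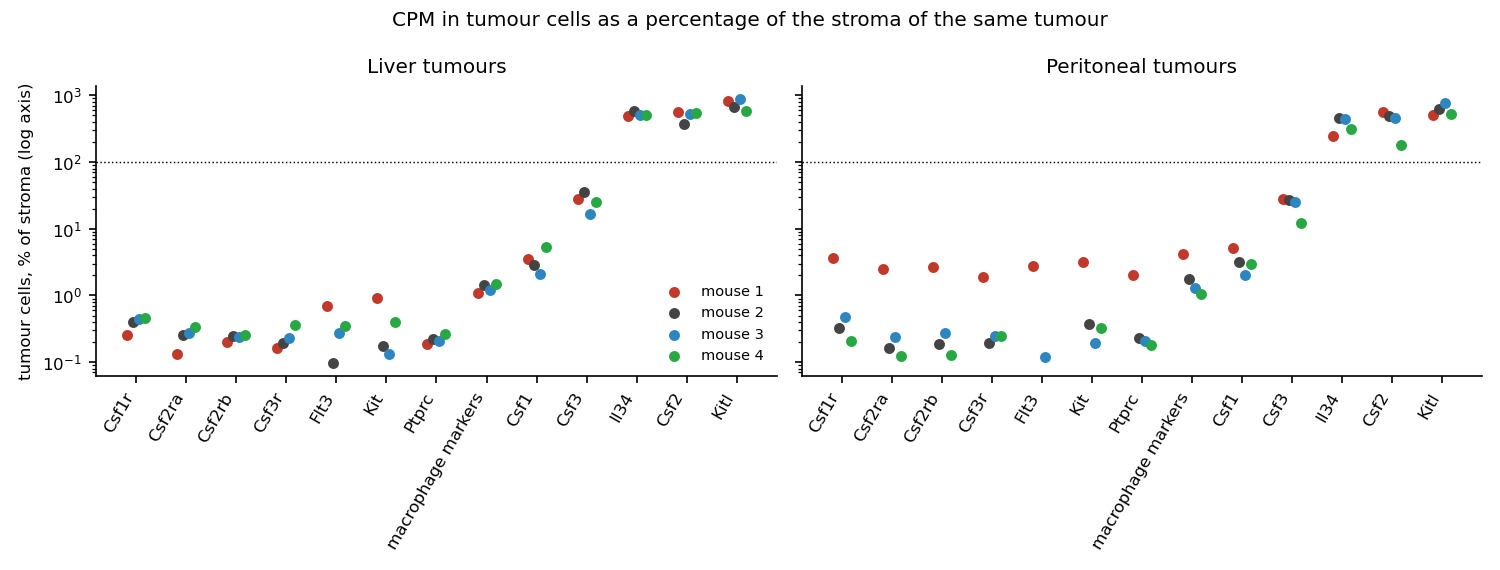
The level in tumour cells as a percentage of the stroma of the same tumour, on a log axis, for receptors, Ptprc, the summed macrophage markers and ligands, with 1 point per mouse; the dotted line marks equal levels, and 2 values of 0 (Flt3, peritoneal, mice 2 and 4) cannot be drawn. Receptors and Ptprc lie below 1% except for the peritoneal tumour of mouse 1, and Il34, Csf2 and Kitl lie above 100% in every mouse.

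Among the ligands, Csf1 was on the stromal side. In stroma it was measured at 218, 199, 287 and 134 CPM in the liver and at 310, 309, 411 and 314 CPM in the peritoneum. The tumour cells of the same tumours held 7.55, 5.65, 5.94 and 7.23 CPM in the liver and 15.8, 9.68, 8.45 and 9.41 CPM in the peritoneum. Csf1 was thus 32.3-fold lower in liver tumour cells (log2 fold change -5.01, SE 0.23, adjusted p = 1.63e-09) and 29.6-fold lower in peritoneal tumour cells (-4.89, SE 0.24, adjusted p = 9.64e-07) than in stroma. Relative to the stroma the tumour cells stood at 2.06% to 5.41%, above the share of Ptprc in the same libraries.

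Il34, the gene of the second CSF-1R ligand, is not one of the 10 members but comes from the list of related genes, and it went the other way. It was measured at 23, 22.8, 23.5 and 22.9 CPM in liver tumour cells and 16.9, 23.5, 26.7 and 28.8 CPM in peritoneal tumour cells, against 3.93 to 4.78 CPM in liver stroma and 5.2 to 9.19 CPM in peritoneal stroma. The groups did not overlap, and the log2 fold changes were 2.34 (SE 0.11, adjusted p = 2.54e-09) and 1.88 (SE 0.23, adjusted p = 8.29e-05). Per kilobase of exon, the ligands of CSF-1R in liver tumour cells averaged 11.8 CPM per kb for Il34 and 1.25 for Csf1, and in liver stroma 2.28 for Il34 and 39.8 for Csf1. Tumour cells and stroma therefore differed in which of the 2 ligand genes was the more abundant, in the peritoneum as well (12.2 and 2.06 CPM per kb in tumour cells, 3.48 and 63.8 in stroma).

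Kitl, the gene of stem cell factor, was the most abundant ligand of the tumour cells on either scale. It was measured at 280, 281, 272 and 239 CPM in liver tumour cells and 295, 266, 308 and 273 CPM in peritoneal tumour cells. The stroma held 33.5, 41.5, 31.1 and 40.7 CPM in the liver and 58.4, 42.7, 39.7 and 52.2 CPM in the peritoneum. The difference was 7.17-fold in the liver (log2 fold change 2.84, SE 0.11, adjusted p = 6.17e-10) and 6.19-fold in the peritoneum (2.63, SE 0.14, adjusted p = 1.45e-06). Its receptor gene Kit was, as given above, almost wholly stromal.

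Csf2, the GM-CSF gene, was less abundant but showed the same side. Liver tumour cells held 19.1, 14.8, 13 and 19.3 CPM and peritoneal tumour cells 15.3, 7.85, 10.4 and 8.27 CPM, against 1.59 to 4.61 CPM in the 8 stromal libraries. The log2 fold change was 2.27 (SE 0.19, adjusted p = 4.35e-07) in the liver and 1.96 (SE 0.36, adjusted p = 0.000948) in the peritoneum. Both chains of its receptor, Csf2ra and Csf2rb, were stromal.

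Since the stroma carried RNA of epithelial markers, its content of these 3 ligands was set against them. The summed epithelial markers in stroma had a median of 15.2% of the tumour-cell level for liver tumours and 7.96% for peritoneal ones. The corresponding medians were 13.4% and 17.6% for Kitl, 18.7% and 21.2% for Csf2, and 19.8% and 27.1% for Il34. Liver stroma also held RNA of 6 hepatocyte markers, with a sum of 33.9 to 246 CPM against 1.47 to 2.91 CPM in peritoneal stroma. The epithelial sum is therefore not a measure of tumour cells alone. The part of tumour cells left in the stromal fraction in these ligand levels was not tested.

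Csf3, the G-CSF gene, was low everywhere. It was measured at 3.57, 2.17, 4.37 and 3.25 CPM in liver stroma and 5.71, 3.75, 3.95 and 4.85 CPM in peritoneal stroma, and at 0.591 to 1.59 CPM in the 8 tumour-cell libraries. The log2 fold change of tumour cells against stroma was -2.04 (SE 0.27, adjusted p = 2.54e-05) in the liver and -2.05 (SE 0.31, adjusted p = 0.000326) in the peritoneum. Flt3l, the ligand gene of Flt3 from the related list, was also higher in stroma, at 5.09 to 9.04 CPM against 1.67 to 2.95 CPM in tumour cells, with log2 fold changes of -1.69 (adjusted p = 7.11e-06) and -1.49 (adjusted p = 0.000635). Of the 6 ligand genes, Kitl, Csf2 and Il34 were thus higher in tumour cells and Csf1, Csf3 and Flt3l in stroma.

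**Figure D3:**
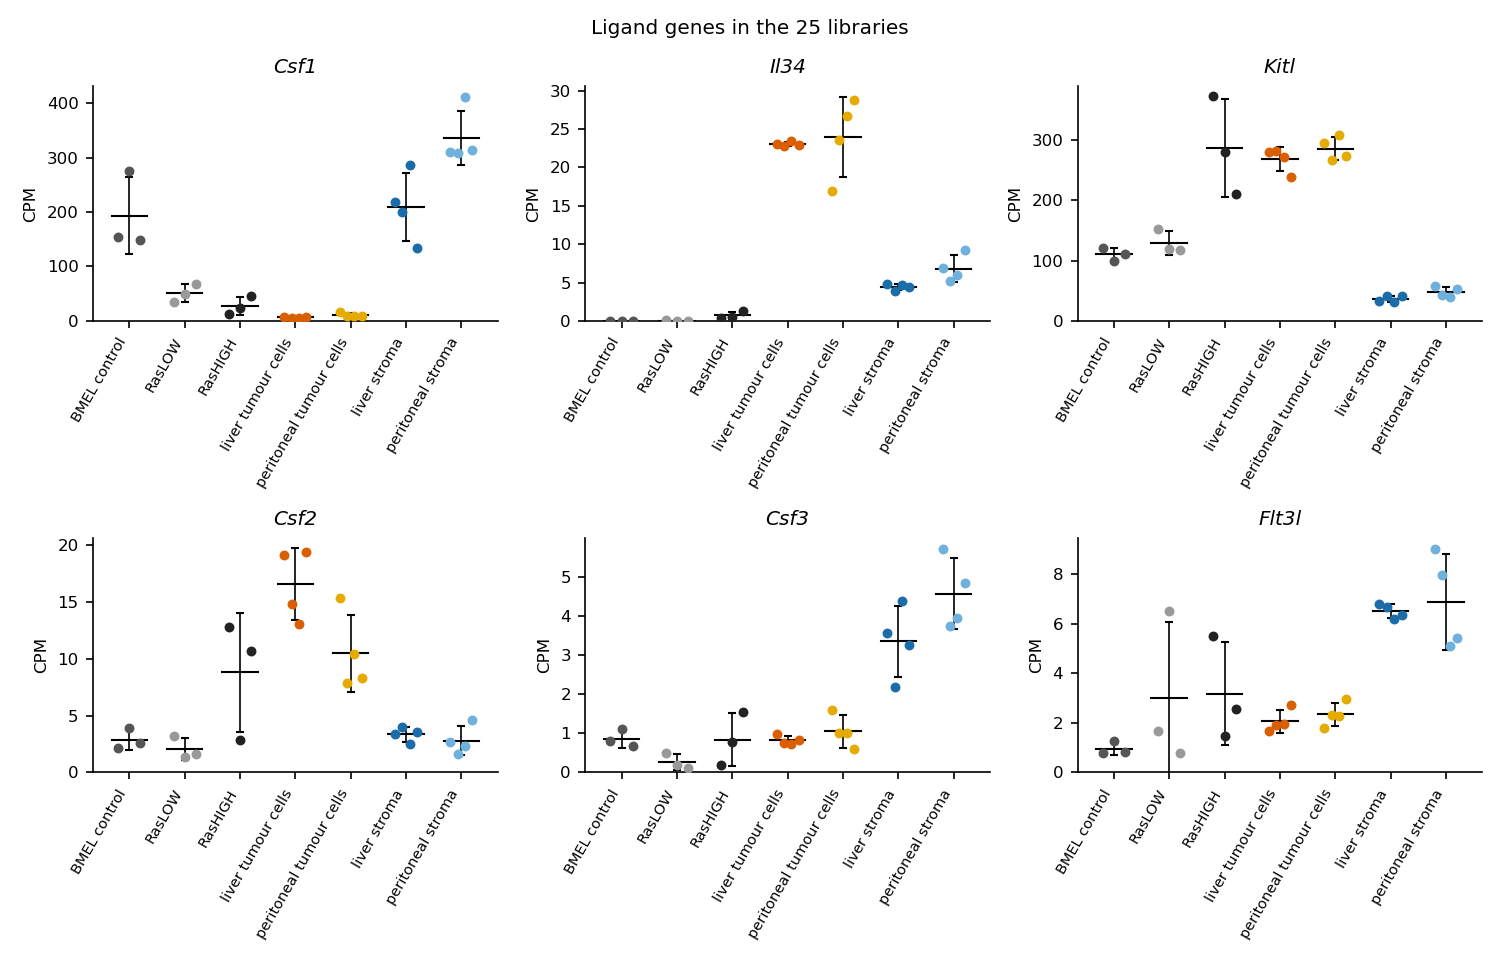
CPM of the 4 member ligands and of Il34 and Flt3l in the 25 libraries; points are libraries, bars the mean and its SD over 3 or 4 libraries, axes start at 0 and lower error bars that would pass below 0 are not shown there. Csf1 is high in control cells and stroma, Il34 in both tumour-cell groups, and Kitl in RasHIGH and tumour cells.

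The second question was whether the level of Ras in cultured cells changes these genes. Csf1 had the largest fold change against control among the 4 member ligands in both Ras groups. It was measured at 155, 275 and 149 CPM in control cells, 35.5, 49.8 and 68.7 CPM in RasLOW cells and 12.9, 23.9 and 45.8 CPM in RasHIGH cells. Both Ras groups lay below all control values, and they overlapped each other. Against control, Csf1 was 3.83-fold lower in RasLOW cells (log2 fold change -1.94, SE 0.33, adjusted p = 0.0198) and 7.16-fold lower in RasHIGH cells (-2.84, SE 0.49, adjusted p = 0.00751). In RasLOW cells Csf1 was the only member called of 6 tested, beside 5.96% of all genes, 1.92% higher and 4.05% lower. DESeq2 called 2 members among 1632 genes, and edgeR had 3 members at an unadjusted p under 0.05. The groups did not overlap for Csf1, as for 28.5% of all genes. The call was lost without control replicate 1 (adjusted p = 0.0553) or control replicate 2 (adjusted p = 0.0577).

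In RasHIGH cells 4 of the 6 members tested passed against control, Kitl higher and Csf1, Csf1r and Csf2ra lower, beside 22.6% of all genes, 10.9% higher and 11.7% lower. None of these 4 overlapped between the groups, as was so for 42.9% of all genes. Kitl rose from 121, 99.5 and 111 CPM in control cells to 372, 279 and 210 CPM in RasHIGH cells, without overlap, a 2.52-fold increase (log2 fold change 1.33, SE 0.21, adjusted p = 0.00541). In RasLOW cells it stood at 153, 119 and 117 CPM, which overlapped the control (log2 fold change 0.19, adjusted p = 0.539). Csf1r was low in all cultures, at 3.28, 2.93 and 3.55 CPM in control cells and 0.303, 1.03 and 0.586 CPM in RasHIGH cells (log2 fold change -2.38, SE 0.45, adjusted p = 0.011), and the adjusted p was 0.063 in a fit of all 25 libraries. Csf2ra had 2.72, 1.07 and 0.999 CPM in control cells, 0.0359, 0.394 and 0.0405 CPM in RasLOW cells and no count in any RasHIGH library, a fall of Csf2ra from control to RasHIGH cells given here only as a bound, at least 12.1-fold lower with the floor of 3 counts per library (adjusted p = 0.00764).

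Lane and group were partly confounded in this comparison, because lane 3 held control replicates 1 and 2, and lane 4 held control replicate 3 with all RasLOW and RasHIGH libraries. With the lane 4 libraries alone, 1 control against 3, no member passed in either comparison, the single control being assumed to vary like the other group. No gene at all passed for RasLOW and 316 did for RasHIGH, so the lost calls say little about the members. Csf1 then had log2 fold changes of -1.58 in RasLOW (adjusted p = 0.402) and -2.48 in RasHIGH cells (adjusted p = 0.134), and Kitl had 1.32 in RasHIGH cells (adjusted p = 0.179), so the directions and sizes were close to those of all libraries while the calls were lost. Csf1r and Csf2ra had adjusted p-values of 0.167 and 0.127 there.

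Csf2 did not pass in culture in edgeR's fits of 2 groups and varied within the RasHIGH group. It was measured at 2.16, 3.89 and 2.55 CPM in control cells, 3.16, 1.38 and 1.62 CPM in RasLOW cells and 12.8, 2.84 and 10.7 CPM in RasHIGH cells. RasHIGH replicate 2 lay within the control range and the other 2 above it, and the log2 fold change against control was 1.57 (SE 0.54, adjusted p = 0.078). It passed without that library (1.99, adjusted p = 0.0146), in edgeR's fit of all 25 libraries (1.61, adjusted p = 0.00934) and with DESeq2 (adjusted p = 0.0124). Csf3 stood at or below 1.53 CPM in all cultures and did not pass. Csf2rb, Csf3r, Flt3 and Kit were too low in culture to be tested, with at most 0.288 CPM in any of the 9 libraries. Il34 was likewise untested there, with no count in any control library, 4 counts over the RasLOW group and 51 over the RasHIGH group (0.379, 0.56 and 1.26 CPM), at least 6.33-fold above the floor of the controls.

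Between RasHIGH and RasLOW cells none of the 5 members tested passed with edgeR, beside 0.0752% of all genes (0.0585% higher and 0.0167% lower). With edgeR 2 members had an unadjusted p below the threshold. With DESeq2 2 members, Kitl and Csf2, passed, but that method called 414 genes here. Kitl did not overlap between these groups, like 15.7% of all genes, and was 2.22-fold higher in RasHIGH cells (log2 fold change 1.15, SE 0.23, adjusted p = 0.135 with edgeR and 0.00327 with DESeq2). Csf2 had a log2 fold change of 2.1 (SE 0.6, adjusted p = 0.266 with edgeR and 0.0132 with DESeq2) and overlapping groups. In edgeR's fit of all 25 libraries Kitl and Csf2 passed, with adjusted p-values of 0.000363 and 0.00737, among 917 genes that passed there.

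The third question was how tumour cells in the mouse differ from cultured RasHIGH cells. Sorting, dissociation and lane differ together with the group here, so their parts cannot be told apart. Since the injected Ras population is not given, RasHIGH cells may not be the parent population of these tumours. Among the ligands tested Il34 had the largest change, from 0.379, 0.56 and 1.26 CPM in culture to the 16.9 to 28.8 CPM given above. This was a 31.8-fold increase in liver tumour cells (log2 fold change 4.99, SE 0.35, adjusted p = 2.54e-05) and a 33.3-fold increase in peritoneal tumour cells (5.06, SE 0.41, adjusted p = 0.00022). Csf1 was lower by 2.06 on the log2 scale in liver tumour cells (SE 0.37, adjusted p = 0.00217) without overlap. In peritoneal tumour cells Csf1 was lower by 2.51-fold (log2 -1.33, SE 0.41, adjusted p = 0.034), with overlap, and that call was lost without RasHIGH replicate 2 or 3 or without peritoneal tumour cells of mouse 2, 3 or 4 (adjusted p from 0.0663 to 0.134). Kitl did not pass in either site (log2 fold changes of -0.1 and 0.01, adjusted p = 0.689 and 0.969), nor did Csf2 (0.92 and 0.27, adjusted p = 0.109 and 0.675) or Csf3.

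In total 5 of the 8 members tested passed in each site, 4 higher and 1 lower, beside 45.1% of all genes for the liver (23% higher, 22.1% lower) and 37.9% for the peritoneum (19.3% higher, 18.6% lower). The groups of all 4 higher members did not overlap, as was so for 48.8% of all genes for liver and 44.9% for peritoneal tumour cells. The 4 higher ones were the receptors Csf1r, Csf2ra, Csf2rb and Csf3r, whose levels in tumour cells were below 1% of the stroma outside the peritoneal tumour of mouse 1. Ptprc was higher in the same comparisons, by 5.15 (adjusted p = 0.000652) and 6.03 (adjusted p = 0.019) on the log2 scale. Csf2rb had no count in any RasHIGH library and was at least 33.5-fold higher in liver tumour cells, and Csf1r was 8.84-fold higher there (log2 fold change 3.14, adjusted p = 0.000557). For the peritoneum DESeq2 gave no adjusted p for these 4 receptors, and leaving out RasHIGH replicate 2 or 3 left 1 or 2 members called with edgeR.

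The fourth question was whether the site matters. In mouse 2 lane and site cannot be told apart, since its liver libraries were in lane 1 and its peritoneal ones in lane 2. The libraries of each other mouse shared a lane. In tumour cells none of the 8 members tested passed between liver and peritoneum with edgeR, beside 3.2% of all genes (1.33% higher, 1.87% lower). Of the members 2 had an unadjusted p below the threshold with edgeR. With DESeq2 Csf1 and Csf2 passed, but that method called 1239 genes here. Csf1 was lower in every liver tumour than in every peritoneal tumour, a separation shared by 12.1% of all genes, by 1.65-fold (log2 fold change -0.73, SE 0.21, adjusted p = 0.0905, 0.0187 with DESeq2). Without the peritoneal tumour cells of mouse 1 the log2 fold change of Csf1 was -0.48 (adjusted p = 0.0824 with edgeR). Csf2 was higher in the liver (0.65, SE 0.22, adjusted p = 0.135, 0.0482 with DESeq2), with overlap through mouse 1. The signs of the receptors rested on mouse 1: without its peritoneal tumour cells, Csf1r, Csf2ra, Csf2rb and Csf3r turned from lower to higher in the liver, by 0.72, 0.95, 1.32 and 1.12 on the log2 scale, Csf2rb passed (adjusted p = 0.017) and so did Csf2 (0.9, adjusted p = 0.0159). In that fit 459 of all genes were called higher and 425 lower. The mouse is a block in this comparison, since both tumours came from the same animals, and with it the genes that passed fell from 419 to 102, again without a member, and the same 4 receptors had log2 fold changes of 0.01 to 0.56 in place of -1.16 to -0.38.

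In the stroma 7 of the 10 members passed between the sites, 5 higher and 2 lower in the liver, beside 33.4% of all genes, 14.9% higher and 18.5% lower. The 5 were receptors: Csf2rb was 2.16-fold higher in the liver (log2 fold change 1.11, SE 0.19, adjusted p = 0.00162), Csf3r 2.1-fold (1.07, SE 0.1, adjusted p = 4.32e-05), Flt3 2.2-fold (1.14, SE 0.23, adjusted p = 0.0042), Csf2ra 1.47-fold (0.55, SE 0.14, adjusted p = 0.0121) and Csf1r 1.33-fold (0.41, SE 0.12, adjusted p = 0.027). None of the 5 overlapped between the sites, as was so for 34.9% of all genes. The 2 lower in the liver were the ligands Csf1 (-0.73, SE 0.2, adjusted p = 0.0212), without overlap, and Kitl (-0.44, SE 0.15, adjusted p = 0.0409), with overlap. Kit did not pass (-0.03, SE 0.27, adjusted p = 0.94), and neither did Csf2 or Csf3. Il34 was lower in the liver stroma too (-0.66, SE 0.19, adjusted p = 0.0253), and Csf2rb2 was higher (1.22, SE 0.14, adjusted p = 0.000155), at 579 to 664 CPM against 212 to 325 CPM.

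In a fit of all 25 libraries, which shares 1 estimate of spread with the cultured cells, none of the 10 members passed, while 1726 genes higher and 2010 lower still did. The members' adjusted p-values ran from 0.0524 for Csf3r to 0.63 for Csf1r among the 5 receptors. Leaving out 1 library at a time left 5 to 7 members called: Csf1r lost its call without liver stroma of mouse 1, 3 or 4 or peritoneal stroma of mouse 2 or 3 (adjusted p from 0.0552 to 0.0712), and Csf1 without peritoneal stroma of mouse 3 (0.0572). Kitl lost it without liver stroma of mouse 1, 3 or 4 or peritoneal stroma of mouse 1 or 4 (0.0551 to 0.103), and Il34 without liver stroma of mouse 2 or 4 or peritoneal stroma of mouse 4 (0.0526 to 0.0601). Csf2rb, Csf3r, Flt3 and Csf2ra passed in every such fit.

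**Figure D4:**
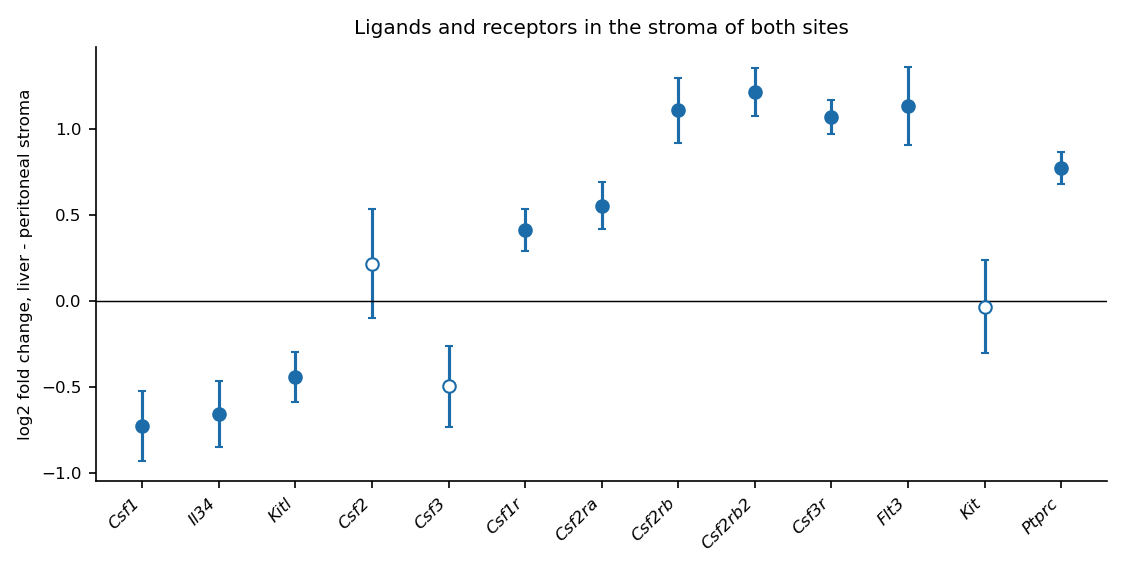
Log2 fold change of liver against peritoneal stroma from edgeR, with its SE, for ligands, receptors and Ptprc; filled points passed at an adjusted p under 0.05 and open points did not. The receptors other than Kit lie above 0, as does Ptprc, and Csf1, Il34 and Kitl lie below 0.

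Leukocyte RNA differed between the sites in the same direction as these receptors. Ptprc stood at 927 to 1020 CPM in liver stroma and 501 to 598 CPM in peritoneal stroma (log2 fold change 0.77, adjusted p = 0.000201), while fibroblast and stellate markers summed to 3090 to 6103 CPM against 26286 to 45160 CPM. Relative to Ptprc, as log2((CPM + 1)/(CPM of Ptprc + 1)), no receptor differed with an adjusted p under the threshold in a two-sided exact permutation test over 70 groupings. The smallest p it allows is 0.0286, so that at least 5 of the 7 ratios would have had to reach it for any to pass after adjustment, and exchanging labels within mice allows no p below 0.125. The test therefore does not show that the ratios were alike. Csf1r was lower in the liver per Ptprc in all libraries (difference -0.35, exact p = 0.0286, adjusted over 7 tests 0.1). It was higher in all liver libraries relative to the mean log2 level of 10 macrophage markers (difference 0.32, exact p = 0.0286, adjusted 0.1). The differences were 0.35 for Csf2rb, 0.29 for Csf3r, 0.36 for Flt3, -0.21 for Csf2ra and -0.75 for Kit, all with overlap (adjusted p from 0.133 to 0.314 in the exact test). The part of leukocyte content in the site differences of the receptors was not tested beyond these ratios.

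Markers of the cells known to bear each receptor are given beside them. As a background, 14.9% of all genes tested were higher in liver stroma and 18.5% lower. Of 8 dendritic cell markers 7 were higher in liver stroma, with a sum of 2174 to 3009 CPM against 1406 to 1790 CPM, beside the higher Flt3. Of 8 neutrophil markers 2 were higher in the liver and 6 did not pass, beside the higher Csf3r. Their sum was 1119 to 1985 CPM in liver stroma and 474 to 530 CPM in 3 peritoneal libraries, but 3332 CPM in the peritoneal stroma of mouse 1, in which Csf3r was 271 CPM, within the range of the other 3. Of 10 macrophage markers 1, Aif1, was higher in the liver and 9 did not pass, beside a Csf1r difference of 1.33-fold. Of 8 mast cell markers 6 were lower in the liver, with a sum of 198 to 258 CPM against 447 to 1919 CPM. Tpsab1, a mast cell tryptase, averaged 3.02 CPM in liver and 337 CPM in peritoneal stroma (log2 fold change -6.85, adjusted p = 3.51e-05), whereas Kit, the receptor on which mast cells depend, averaged 49.2 ± 11.6 and 48.7 ± 21.5 CPM (SD, n = 4). The highest Kit value, 80.4 CPM in the peritoneal stroma of mouse 3, was in the library with the highest mast cell sum, 1919 CPM.

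Whether a site effect differed between tumour cells and stroma was tested with an interaction term. None of the 10 members passed with edgeR, none had an unadjusted p below the threshold and none passed with DESeq2 (3 without an adjusted p), beside 14.3% of all genes (6.79% higher, 7.5% lower). From the related list Il3ra, the interleukin-3 receptor alpha chain, passed (0.91, SE 0.23, adjusted p = 0.0162): its log2 fold change between the sites was -0.37 in tumour cells and -1.36 in stroma. In a fit of all 25 libraries its adjusted p was 0.0984.

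The rest of the pathway is given by lists of genes, which, like the members, were chosen with earlier results of these data known. Of 19 genes of signalling below these receptors, 18 were lower in tumour cells than in stroma in each site and 1 did not pass, beside 39.4% and 37.1% of all genes that were lower, with median log2 fold changes of -1.82 and -1.76. Examples with large changes in the liver were Pik3cd, the leukocyte PI3-kinase subunit (-8.19), Inpp5d, the phosphatase SHIP1 (-7.49), and Ptpn6, the phosphatase SHP-1 (-4.68). All 8 transcription factors of the receptor-bearing lineages were lower in tumour cells in each site, with log2 fold changes in the liver of -8.54 for Spi1 (PU.1), -8.13 for Cebpe and -7.80 for Irf8. Between the stromas 12 of the 19 signalling genes were higher in the liver and none lower, beside 14.9% and 18.5% of all genes. The list median was 0.45 against 0.02 over all genes. Among the 12 were Cish (0.73), Lyn (0.66) and Jak2 (0.57), all at adjusted p-values of 0.0154 or below with edgeR. For the 8 lineage factors, 2 were higher in the liver, 1 was lower and 5 did not pass. Ptprc was higher there too (0.77), and the part of leukocyte content in these differences was not tested.

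In culture 3 of 17 signalling genes tested passed between RasHIGH and control cells, a share no higher than the 22.6% of all genes. Socs3, a feedback inhibitor of cytokine signalling, was 23.3 ± 3.19 CPM in control and 63 ± 14 CPM in RasHIGH cells (SD, n = 3; log2 fold change 1.4, adjusted p = 0.00335). Sh2b3 was higher (0.5) and the kinase gene Fes lower (-0.75). Of the lineage factors Gata2 (-2.03) and Mitf (-1.84) were lower. Between tumour cells and RasHIGH cultures 6 signalling genes were higher and 1 lower of 19 in the liver, and 4 higher and 2 lower of 18 in the peritoneum, shares below the 45.1% and 37.9% of all genes that passed. Cish, a STAT5 target gene and inhibitor of cytokine signalling, was 5.14 ± 3.04 CPM in RasHIGH cultures and 43.5 ± 11.2 CPM (SD, n = 4) in liver tumour cells (log2 fold change 3.07, adjusted p = 0.000386), and 29.4 ± 10.5 CPM in peritoneal tumour cells (2.53, adjusted p = 0.00326).

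Among the remaining related genes, the ligand genes Il3 and Il5 had at most 4 and 10 counts over any group. Il5ra, the interleukin-5 receptor alpha chain that pairs with Csf2rb, was measured at 62.2, 10.2 and 9.06 CPM in control cells, 389, 79.4 and 161 CPM in RasLOW, 82.2, 224 and 245 CPM in RasHIGH, 98.8 to 190 CPM in liver tumour cells and 69.9 to 134 CPM in peritoneal tumour cells. Liver stroma held 15.7 to 27 CPM and peritoneal stroma 6.51 to 12.4 CPM, a range that overlaps the control cells. The spread among cultures was wide, and Il5ra did not pass against control with edgeR in either Ras group (adjusted p = 0.11 for RasLOW and 0.0559 for RasHIGH). Of the 4 related genes tested against control, edgeR called none. DESeq2 called 1 for RasLOW, beside 1632 of all genes, and 3 for RasHIGH, beside 1736 of all genes higher and 1815 lower. With edgeR 1 and 3 of the related genes had an unadjusted p below the threshold. For RasHIGH edgeR called 1 to 2 of them in each fit without 1 library. Il5ra was higher in tumour cells than in stroma by 2.56 (adjusted p = 1.16e-06) in the liver and 3.41 (adjusted p = 1.4e-05) in the peritoneum on the log2 scale. Csf2rb, its signalling partner, was at 0 to 0.138 CPM in the cultures.

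The genes whose levels followed each member most closely over the 25 libraries were named by Pearson correlation of log2(CPM + 1) among 13184 genes, as a description, since libraries of a group share their source. Csf1 was most like Colgalt1 (r = 0.975), Msrb3 and Cdc42ep3. Kitl was most like Ctnnb1 (r = 0.979), the beta-catenin gene, Plekhh3 and Frk. Csf2 was most like Tspan12 (r = 0.895), Pdcl3 and Fgd6. The receptors had higher values, in a set of points where stroma and the other groups form separate clusters: Flt3 with Btla, Clec9a and Rnase6 (0.998 to 0.997), Csf2rb with Mmp12, H2-Ab1 and H2-Aa (0.999), Csf3r with Sla, Il10ra and Themis2 (0.999), Csf1r with Ucp2, Gda and Kctd12 (0.996 to 0.995), Csf2ra with Atp8a1, H2-DMa and Nfkbid (0.998 to 0.997), and Kit with Tnfaip8l2, Trps1 and Otulinl (0.997 to 0.996). Csf3 was most like Cmah (0.947), Ccl9 and Pf4. Over the 8 stromal libraries alone, among 13550 genes, other genes came first. They were Alg5 for Csf1 (0.971), Cd300a for Csf1r (0.994), Nup210l for Csf2 (0.948), Pde1b for Csf2ra (0.992) and F10 for Csf2rb (0.992). For Csf3 it was Ghdc (0.979), for Flt3 Serpinb6b (0.986), for Kit Oma1 (0.942) and for Kitl Kif3a (0.953). Csf3r was there most like Igfbp1 (0.991), Fgb and the hepatocyte marker Hpx.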

How the data were processed

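RNA was sequenced by the authors from 25 samples as mRNA libraries on an Illumina HiSeq. They deposited raw counts of reads per gene, not normalized, 1 column per library; per the paper's methods the reads were aligned to mm9 with TopHat2, while the submitters' processing notes name FastQC, Bowtie 0.12.2, mm8 and mm10. The counting program, its strand setting and the annotation are not given in the sources used here, so overlapping genes and paralogs may share counts. The study's methods call the samples of cell lines and of sorted tumour cells independent; the stroma is from the same 4 mice.

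Each comparison was fitted with edgeR 4.0.16 (R 4.3.3) in a fit of the groups compared: filterByExpr (minimum count 10), TMM factors, quasi-likelihood F-test and Benjamini-Hochberg adjustment over all genes tested, called at an adjusted p under 0.05. SEs were derived from the F statistic. Levels are CPM with TMM factors over all 25 libraries, per kb with GENCODE vM1 exon lengths on mm9 (117 of 121 listed genes had one). Ratios used a pseudocount of 1 and exact permutation tests. The members and lists were chosen with earlier results of these data known. All 10 members are named, with related genes and the 3 genes most like each member; of the pathway lists, up to 4 called genes with the largest changes, less 1 gene not reported here. Sh2b3, Fes, Gata2 and Mitf are all those called beside Socs3; Cish against RasHIGH cultures, and markers other than Ptprc, were chosen after their values were seen.

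In simulated counts for RasHIGH against control (12260 genes), 86.6% of genes changed by 2 on the log2 scale and 24.2% of those changed by 1 were recovered. For liver against peritoneal stroma (14752 genes) these were 87.5% and 63.3%. The simulation left out genes with low mean counts and held no effect of lane or mouse, so recovery in the data may be lower. Within groups, libraries correlated at 0.984 to 0.998 and no pair was identical. Samples of 1 mouse come from the same animal, so the mouse pairs them; the deviations of same-mouse libraries correlated at -0.17 to 0.389 over the 4 comparisons of sorted cells. Alternatives were DESeq2 1.42.0, RLE factors, no filter, the study's thresholds, all libraries in 1 fit, the replicate block, lane 4 only, and leaving out each library. Under the study's thresholds the log2 fold change had to exceed 1.5 with p under 0.01 between cultures, and 1 with p under 0.05 elsewhere, in either direction. These were set on edgeR's unadjusted p, without the study's own test or its removal of weakly expressed genes, so the counts are not the study's. The columns of all 25 libraries were used.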

Additional observations from a re-analysis of the deposited data

Results flagged for a closer look

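The peritoneal tumour cells of mouse 1 lay far above the other 3 mice for 8 genes. The gap to the nearest library, as a share of the group's range, was 0.833 for Csf1, 0.936 for Csf1r, 0.924 for Csf2ra, 0.938 for Csf2rb, 0.948 for Csf3r, 0.962 for Flt3, 0.967 for Kit and 0.920 for Csf2rb2, each above Dixon's critical value for 4 samples. Ptprc was 12.2 CPM in that library, and the part of leukocyte or other stromal RNA in these values was not tested. Csf1 in the peritoneal stroma of mouse 3 (gap share 0.947) and Il5ra in the liver tumour cells of mouse 1 (0.962) also stood apart. In all 10 of 65 groups of values were past the critical value, where chance gives about 5%, and the genes share libraries. The effect of site on Il3ra differed between tumour cells and stroma by 0.91 on the log2 scale in edgeR's interaction test (adjusted p = 0.0162).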

How the results depend on the processing

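Numbers of genes passing moved by over 1.5 times as follows. For RasLOW against control (734 genes, 1 member), the study's thresholds gave 2 members, all libraries in 1 fit 2440 genes and 3 members, the replicate block 295 genes, lane 4 only 0 and 0, and DESeq2 1632 and 2. For RasHIGH against control (2789), the study's thresholds gave 1190 genes, all libraries 4347, and lane 4 only 316 genes and 0 members. For RasHIGH against RasLOW (9), the study's thresholds gave 253 genes and 1 member, no filter 77 genes, all libraries 917 and 2 members, the block 0 genes, and DESeq2 414 and 2 members. Tumour sites (419) had 102 genes with the block and 1239 genes and 2 members with DESeq2. Stroma sites (4926 genes, 7 members) had 2107 and 3 under the study's thresholds and 0 members with all libraries. The study's thresholds gave 6437 and 6377 genes for tumour cells against stroma (11376 and 11168) and 3050 and 2571 against RasHIGH (5851 and 4846). Peritoneal tumour cells against RasHIGH had 2 members with DESeq2, with 4 lacking an adjusted p, and the interaction (2191) had 1180 genes with all libraries.

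Signs changed only for values that had not passed. Csf3 in RasHIGH cells was 0.27 in lane 4. Between tumour sites the block gave 0.0082 for Csf1r, 0.24 for Csf2ra, 0.56 for Csf2rb, 0.42 for Csf3r and 0.80 for Csf2rb2. Kit between stromas was 0.0074 with all libraries and 0.023 with the block. Kitl in peritoneal tumour cells against RasHIGH was -0.0082 without the filter and -0.0044 with all libraries.

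Leaving out single libraries gave 148 to 2340 genes and 0 to 2 members for RasLOW, 1517 to 3896 genes for RasHIGH against control, 0 to 16 genes for RasHIGH against RasLOW, 41 to 884 genes and 0 to 2 members for tumour sites, and 3154 to 7050 genes and 1 to 5 members for peritoneal tumour cells against RasHIGH. Log2 fold changes then ran from -0.86 to 0.41 for Csf3 in RasHIGH against control and from -1.46 to 0.015 for Csf1r in RasHIGH against RasLOW. Between tumour sites they ran from -1.51 to 0.72 for Csf1r, -1.04 to 0.95 for Csf2ra, -0.72 to 1.32 for Csf2rb, -0.70 to 1.12 for Csf3r, -0.19 to 0.019 for Il34 and -0.40 to 1.49 for Csf2rb2, and between stromas from -0.20 to 0.30 for Kit. Against RasHIGH they ran from -0.48 to 0.80 for Csf3 and -0.28 to 0.13 for Kitl in the liver, and from -0.16 to 0.64 for Csf2, -0.13 to 1.14 for Csf3 and -0.18 to 0.23 for Kitl in the peritoneum. The cause of these changes was not tested.

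Of the alternatives for single fold changes, 1098 kept direction and side of the threshold, 52 lost the call, 17 gained it and 31 changed sign. DESeq2 moved the median of all genes for tumour cells against stroma to -0.25 in both sites. Replicate numbers of cultures, whose deviations correlated at -0.69 to 0.356, were not taken as pairs. The replicate block lost or gained no member's call.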
